A study of Mus musculus with 12 samples.

Results

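The ileal transcriptome of C57BL/6 mice given a sugar drink was compared with that of mice given plain water, both on a normal-fat diet. The comparison holds 6 of the 12 RNA sequencing libraries of a study of fat and sugar intake, namely 3 libraries of mice on normal fat with plain water (NF) and 3 of mice on normal fat with a 23% (w/v) sugar drink (NF_Sugar). All mice were 16 weeks old, that is 6 weeks plus 10 weeks on the diet, and RNA was extracted from the ileum of each mouse separately. The other 6 libraries are 3 of mice that took 60% of their energy as fat and drank plain water (HF) and 3 of mice on that high-fat diet with the same sugar drink (HF_Sugar). They are used below to estimate the spread between mice and to ask whether the sugar drink acted alike on both diets. They also entered the choice of genes tested, the scaling of the values and the principal components. By the study's methods the drink was a sucrose solution and both sexes of littermates were used, but the labels do not give the sex of a mouse. The samples were drawn at random from those with intact RNA, and no sample was dropped from any fit unless stated.

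Sucrose is split by sucrase-isomaltase on the brush border of the enterocyte. Glucose then enters with sodium through SGLT1 (Slc5a1) and fructose through GLUT5 (Slc2a5), and both can leave the cell through GLUT2 (Slc2a2). Fructose is phosphorylated by ketohexokinase and split, and its glyceraldehyde is phosphorylated by triokinase (Tkfc), while the sugar-sensing transcription factor ChREBP (Mlxipl) is known to drive fructose transport, fructolysis, liver-type pyruvate kinase (Pklr) and lipid synthesis genes. Most sugar is taken up before the ileum, whose own tasks include the recovery of bile acids.

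The libraries carried the ileal genes that the label calls for. The bile acid binding protein Fabp6 stood at 2560 to 9710 RPKM (read counts normalized for exon length and sequencing depth, the unit of the deposited values) and the bile acid transporter Slc10a2 at 77.7 to 122 RPKM in the 6 libraries, with the duodenal factor Pdx1 at 0.0779 RPKM or less. The colon gene Car1 reached 241 RPKM in NF replicate 3, 30.9 RPKM in NF_Sugar replicate 3 and 17.2 RPKM in NF replicate 2, against 0.103 RPKM or less in the other 3. Aqp8, a colonic water channel, was at 12.0 RPKM in NF replicate 3 and at most 0.0829 RPKM elsewhere. NF_Sugar replicate 2 was low in genes of the proximal small intestine: the factor Gata4 was at 0.355 RPKM there and at 2.08 to 3.41 RPKM in the other 5, and lactase (Lct) was at 0.0773 RPKM against 4.87 to 18.3 RPKM. The part these libraries had in the results was tested only by leaving each of them out.

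Depth moved with the groups. The NF libraries held 39.0, 27.5 and 24.1 M reads and the NF_Sugar libraries 23.8, 20.2 and 15.3 M, so every NF library was deeper than every NF_Sugar library. Genes with a value above 0 numbered 37295 in NF replicate 3 and 28543 to 32414 in the other 5. On the first principal component (39.8% of the variance) NF replicate 2 and NF_Sugar replicate 1 stood apart from the other 4, together with 1 library of each high-fat group, and these 4 libraries had 73.3% to 73.9% of their reads in genes, against 77.1% to 81.4% in the other 8. Medians of gene lists are therefore also given without these 4 libraries, which leaves 2 mice against 2, where that moved them by 0.1 or more. Of 31 lists whose median log2 difference between sugar and water was at least 0.1 in size, 20 had a median smaller by over 1.5 times without NF_Sugar replicate 2 and 17 had one at 0 or of the other sign without some single library. For most of these lists a value without such a library is given beside the count.

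No gene passed the test of a difference between NF_Sugar and NF. Of 17662 genes tested with limma, 0 (0.0%) had a p under 0.05 after Benjamini-Hochberg adjustment. An unadjusted p under 0.05 was found for 314 (1.78%), of which 122 were higher and 192 lower with sugar. By chance alone 883 genes would be expected at that unadjusted p, more than were found. With limma-voom, run on reads recovered from the RPKM steps, 0 genes were called and 288 were at that unadjusted p. The log2 difference (NF_Sugar minus NF, on log2 of scaled RPKM plus 1) was above 0 for 47.7% of the genes and below 0 for 52.3%, with a median of -0.01. In 537 genes (3.04%) all NF_Sugar libraries lay above all NF libraries after scaling, and in 568 (3.22%) they lay below. Without NF replicate 1, 1 gene passed, the kappa light chain segment Igkv12-40. It read 0.0739, 3.77 and 5.13 RPKM in NF and 0, 0.143 and 0 RPKM in NF_Sugar. The library left out thus lay within the NF_Sugar range. In 503 of 30747 genes checked (1.64%) the NF values alone were not whole numbers of reads, against 0.598% to 0.631% for each of the other groups, and whether the table came from 1 processing run is not given in the sources used here. Without such genes of NF and NF_Sugar 0 genes passed and 311 had an unadjusted p under 0.05. The percentages over all genes are the background against which the counts in gene lists below are to be read, and none of the lists held a gene that passed.

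**Figure D1:**
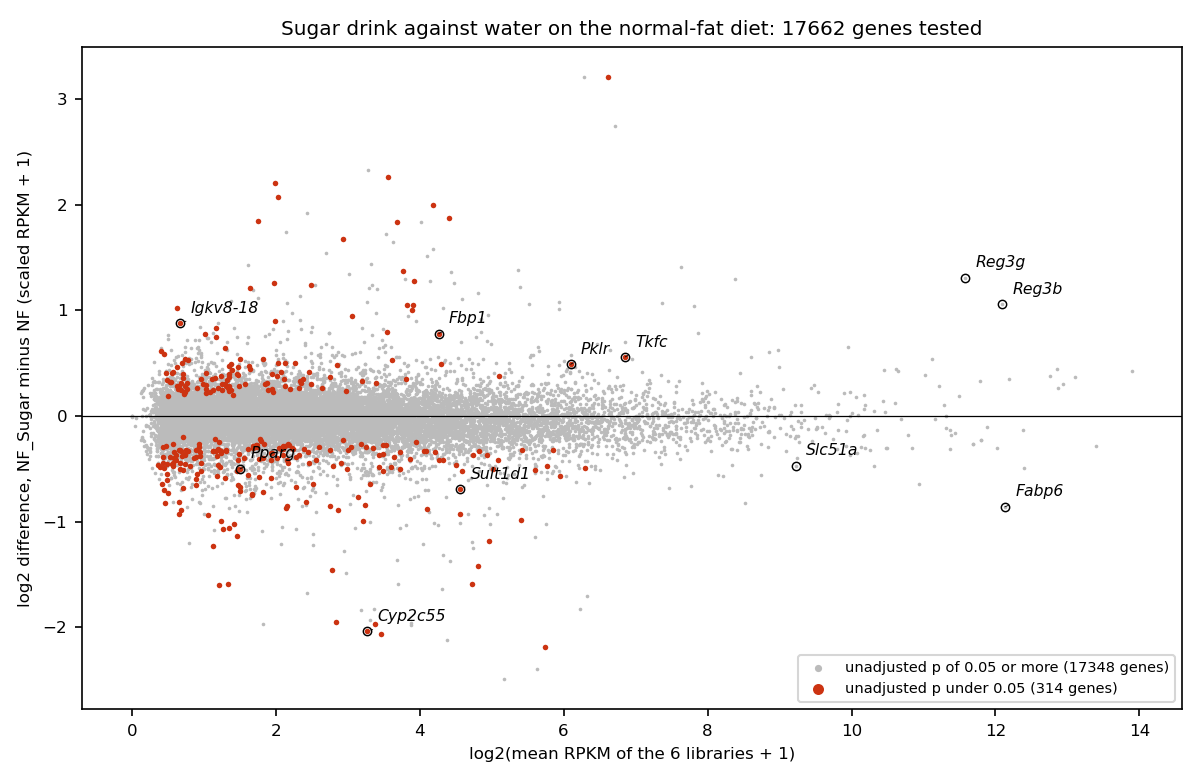
The log2 difference of NF_Sugar minus NF (vertical axis, scaled RPKM plus 1) is plotted against the log2 mean RPKM of the 6 libraries plus 1 (horizontal axis) for the 17662 genes tested, 1 point a gene, with the 314 genes of unadjusted p under 0.05 in red and genes named in the text circled. Most points lie close to 0, and 60 genes are at least 1 log2 unit higher and 55 at least 1 log2 unit lower with sugar, none of them past the adjusted threshold.

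The size of difference that the data could hide was estimated from the spread between mice. The median gene had a 95% interval of 0.40 log2 units of RPKM plus 1 on either side of its difference. That scale understates fold differences at low RPKM, so this width does not bound the fold difference of genes at a low level. Of 7098 genes with a mean of at least 5 RPKM, 5734 (80.8%) had an interval inside 1 log2 unit in either direction. In simulated libraries of this design, 57% of 100 genes changed by 1 log2 unit and 87% of 100 changed by 2 units were recovered. In the same run 9 unchanged genes were called. The changed genes had a mean log2 above 2, and the spread was drawn for each gene independently. The rates thus do not cover genes of lower level or shifts that libraries share. Many simulated differences of 1 log2 unit were missed with 3 mice against 3, and smaller differences were not simulated.

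The smallest adjusted p, 0.76, belonged to the kappa light chain segment Igkv8-18, singled out for that p. It read 0.26, 0.092 and 0 RPKM in NF and 0.852, 0.878 and 1.49 RPKM in NF_Sugar, and at most 0.117 RPKM on the high-fat diet. Such segments are expressed by the B cell clones that rearranged them and resemble one another, so that reads can be split between them. Only the NF_Sugar libraries reached the level needed for testing, so Igkv8-18 entered the test through the group in which it was high. The filter thus favored a higher value with sugar for this gene, and its p is no separate evidence of a difference. Every other gene had an adjusted p of 1.0.

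Genes of sugar uptake showed no common direction. Of 14 tested genes of sugar transport and disaccharide digestion, 8 were higher and 6 lower with sugar (57.1% higher), and their median difference was 0.01. In 1 of them all sugar libraries lay below all water libraries, as they did in 3.22% of all genes. The glucose transporter Slc5a1 read 257, 231 and 210 RPKM in NF and 243, 184 and 286 RPKM in NF_Sugar. Its difference was 0.00 log2 units with a 95% interval of -0.55 to 0.55, so that a difference of 2-fold lay outside the interval.

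Slc2a5, the fructose transporter (chromosome 4, 150119283 to 150144169, mm10), read 14.9, 18.8 and 15.9 RPKM in NF and 29.8, 23.0 and 20 RPKM in NF_Sugar. The mean was 16.5 ± 2.02 RPKM (SD, n = 3) against 24.3 ± 5.01 RPKM (n = 3), 1.47-fold higher with sugar. All NF_Sugar libraries were above all NF libraries in RPKM, but not after scaling. The fitted difference was 0.50 ± 0.27 (SE) log2 units, with a 95% interval of -0.10 to 1.11 and an adjusted p of 1.0 in limma. No other member was further above 0.

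Sucrase-isomaltase (Sis) read 81.0, 85.3 and 109 RPKM in NF and 133, 77.9 and 136 RPKM in NF_Sugar. Here NF_Sugar replicates 1 and 3 were the highest of the 6 and replicate 2 the lowest, a pattern also seen in the exit transporter Slc2a2, at 8.14, 1.57 and 11.2 RPKM in NF_Sugar against 3.49 to 6.09 RPKM in NF. Maltase-glucoamylase (Mgam) had 87.8 to 134 RPKM with sugar and 89.6 to 113 RPKM with water. Slc5a4a, of the SGLT3 family of glucose-sensing membrane proteins, was lower with sugar, at 2.11, 0.795 and 2.04 RPKM against 3.28, 1.91 and 5.06 RPKM, with groups that overlapped and a difference of -0.72 ± 0.31. The basal glucose transporter Slc2a1, the member whose scaled groups did not overlap, differed by -0.29 ± 0.14.

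**Figure D2:**
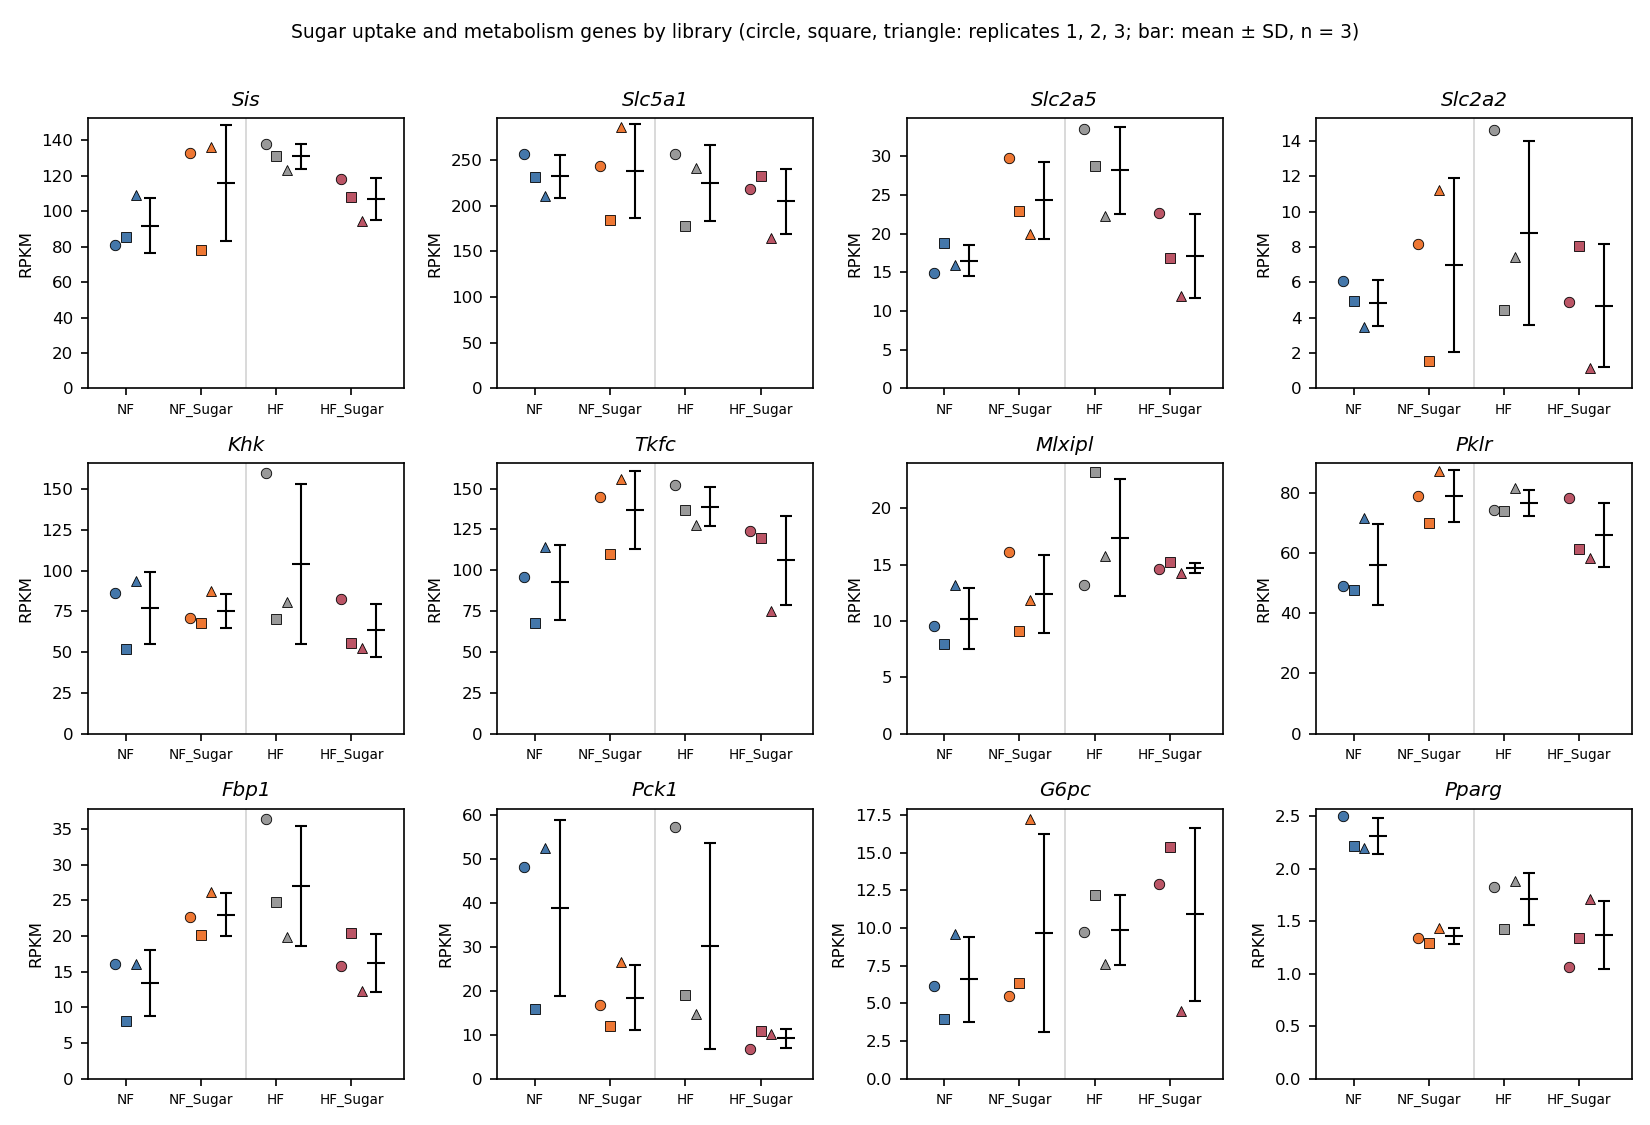
RPKM (vertical axes, from 0) of 12 genes of sugar uptake, fructolysis, glucose metabolism and Pparg is plotted by library, with the 4 groups on the horizontal axis, circles, squares and triangles for replicates 1, 2 and 3, and bars for the mean ± SD (n = 3). On normal fat the means of Slc2a5, Tkfc, Pklr and Fbp1 are among those higher and the means of Pck1 and Pparg among those lower with sugar. Of these genes Slc2a5, Fbp1 and Pparg have groups that do not overlap in RPKM. No gene in the plot passed the adjusted threshold.

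The fructose-breakdown enzymes differed among themselves. Of 15 tested genes of fructolysis and early sugar metabolism, 5 were higher and 10 lower, with a median of -0.02. Ketohexokinase (Khk), which commits fructose to the pathway, read 86.0, 51.7 and 93.3 RPKM in NF and 70.7, 67.9 and 87.3 RPKM in NF_Sugar. The groups overlapped, with a difference of -0.01 (95% interval -0.70 to 0.68).

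Triokinase (Tkfc, chromosome 19, 10587791 to 10605654) was the member that stood higher. It read 96, 68.0 and 114 RPKM in NF and 145, 110 and 156 RPKM in NF_Sugar, a mean of 92.6 ± 23.1 RPKM against 137 ± 23.7 RPKM (SD, n = 3 each). The groups overlapped in RPKM and were apart after scaling. The difference was 0.56 ± 0.24 log2 units, with a 95% interval of 0.02 to 1.11 and an unadjusted p of 0.0425, which did not hold after adjustment over all genes (limma, adjusted p 1.0).

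ChREBP and its targets gave 9 of 15 higher and 6 lower, with a median of 0.02 (-0.08 without the 4 libraries apart). Mlxipl itself read 9.54, 7.95 and 13.2 RPKM with water and 16.1, 9.15 and 11.9 RPKM with sugar. Txnip, a target that reports glucose entry, read 93.7, 110 and 124 RPKM against 113, 115 and 111 RPKM, and Arrdc4, its relative, 4.85 to 7.63 RPKM against 6.77 to 6.93 RPKM. In these 3 genes the NF_Sugar values lay partly or wholly within the NF range. Mlxip, a paralog of Mlxipl, was higher in each sugar library in RPKM (6.06 to 7.23 against 4.97 to 5.63), but not after scaling.

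Pklr, which makes pyruvate kinase of the liver type (chromosome 3, 89136142 to 89146784), read 49.0, 47.8 and 71.6 RPKM in NF and 79.0, 70.0 and 87.3 RPKM in NF_Sugar. NF replicate 3 lay above NF_Sugar replicate 2 in RPKM, and after scaling the groups did not overlap. The fitted difference was 0.49 ± 0.16, with a 95% interval of 0.13 to 0.85 (unadjusted p 0.0127, adjusted p 1.0, limma). Klf15, a factor that answers glucocorticoids and fasting, was lower in each sugar library, at 2.05, 1.58 and 2.28 RPKM against 4.10, 2.44 and 3.00 RPKM, with a difference of -0.49 ± 0.33.

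The gluconeogenic enzymes went in opposite directions. Fructose-1,6-bisphosphatase (Fbp1, chromosome 13, 62864753 to 62888282) read 16.1, 8.07 and 16.1 RPKM in NF and 22.6, 20.2 and 26.2 RPKM in NF_Sugar. The groups did not overlap, and the mean was 1.71-fold higher with sugar (13.4 ± 4.64 against 23.0 ± 2.98 RPKM, SD, n = 3), with a difference of 0.78 ± 0.29 and an unadjusted p of 0.0215. Phosphoenolpyruvate carboxykinase (Pck1) read 48.1, 15.9 and 52.4 RPKM with water against 16.9, 12.1 and 26.6 RPKM with sugar, a difference of -0.94 ± 0.52 in which NF replicate 2 lay among the sugar libraries. Glucose-6-phosphatase (G6pc) varied from 4 to 9.63 RPKM in NF and from 5.49 to 17.2 RPKM in NF_Sugar. In all, 11 of 15 gluconeogenesis and glycogen genes were higher (73.3%, median 0.12, and 0.03 without NF_Sugar replicate 2), and 6 of 15 glycolysis genes (40%, median -0.06), among them Pfkfb4, a regulator of glycolytic flux, at 17.9 to 20.4 RPKM against 14.3 to 15.9 RPKM.

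Lipid synthesis genes split almost evenly. Of 18 lipogenesis and desaturation genes 8 were higher and 10 lower (median -0.06). Acetyl-CoA carboxylase (Acaca) read 0.816 to 1.45 RPKM in NF and 0.967 to 1.04 RPKM in NF_Sugar, and fatty acid synthase (Fasn) 4.70 to 7.19 RPKM against 4.05 to 7 RPKM. Acly, which makes the acetyl-CoA that both use, differed by 0.21 ± 0.14. The desaturase Scd1 was the least settled, at 9.94, 4.84 and 45.1 RPKM with water and 2.75, 20.6 and 22.6 RPKM with sugar, and its 95% interval ran from -2.14 to 1.70.

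In cholesterol synthesis 8 of 26 genes were higher and 18 lower (69.2% lower, median -0.10). Insig1, a sterol-regulated brake on the pathway, read 15.8, 17.0 and 18.3 RPKM in NF and 7.5, 18.7 and 13.3 RPKM in NF_Sugar. NF_Sugar replicate 1 was the lowest library and replicate 2 the highest, so that the groups overlapped. Without the 4 libraries apart, this replicate among them, the list's median was 0.01, and without this replicate alone it was 0.05. Cholesterol uptake and efflux genes split 7 to 7.

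Pparg, the nuclear receptor that directs fat storage and is also expressed in the gut epithelium, had the smallest unadjusted p of the lower genes with separate groups and a mean of at least 1 RPKM, immunoglobulin segments and gene models left aside. It lies on chromosome 6 (115360951 to 115490399) and read 2.5, 2.22 and 2.20 RPKM in NF and 1.34, 1.29 and 1.44 RPKM in NF_Sugar. The groups were well apart, 2.31 ± 0.17 against 1.36 ± 0.0772 RPKM (SD, n = 3), 1.70-fold lower with sugar, with a difference of -0.50 ± 0.12 and a 95% interval of -0.77 to -0.23. At an unadjusted p of 0.00191 it did not pass after adjustment (limma, adjusted p 1.0). Because Pparg is abundant in fat, the adipocyte genes were read beside it. Of 14 tested, 4 were higher and 10 lower, with a median of -0.08 (-0.29 to 0.20 with 1 library left out). Their summed level was 164 to 323 RPKM in NF and 203 to 285 RPKM in NF_Sugar. Adipoq read 2.75, 0.974 and 11.3 RPKM against 0, 5.31 and 9.35 RPKM. Whether fat in the samples had a part in the Pparg values was not tested.

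Fatty acid oxidation genes and PPAR targets, Pparg included, were higher in 17 of 37 cases and lower in 20 (median -0.03). The oxidation enzymes Decr1 and Acadm differed by -0.26 ± 0.14 and -0.20 ± 0.11, and the carnitine transferases Cpt1a and Cpt2 by 0.08 ± 0.16 and -0.17 ± 0.16. Genes of the uptake of fat and the making of chylomicrons were more often lower, 20 of 28 (71.4%, median -0.13), and the median was -0.21 without the 4 libraries apart and 0.06 without NF_Sugar replicate 2. Apoc2, the cofactor of lipoprotein lipase, went against the list at 34.8, 37.5 and 46.8 RPKM with sugar and 18.2, 15 and 27.0 RPKM with water. Its groups did not overlap and its mean was 1.98-fold higher, but the spread on the high-fat diet enters the same error, and the difference was 0.96 ± 0.59.

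Genes for the recovery of bile acids were lower in 9 of 12 cases (75%, median -0.28), but the median was 0.03 without NF_Sugar replicate 2. The basolateral exporter of bile acids is a pair of proteins, and both of its genes were lower in each sugar library. Slc51a read 836, 556 and 684 RPKM in NF and 537, 417 and 545 RPKM in NF_Sugar, and Slc51b 320, 310 and 357 RPKM against 284, 144 and 281 RPKM. The differences were -0.47 ± 0.22 (unadjusted p 0.0536) and -0.56 ± 0.27 (unadjusted p 0.066), neither past the adjusted threshold.

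Fabp6, which carries bile acids through the cell, read 5830, 2560 and 9710 RPKM with water and 2570, 2930 and 3280 RPKM with sugar. The mean was 2.06-fold lower with sugar, but NF replicate 2 was the lowest of the 6, and the 95% interval ran from -2.07 to 0.34. The uptake transporter Slc10a2 overlapped (83.7 to 122 against 77.7 to 98.6 RPKM). Fgf15, the ileal hormone that answers bile acids, was added after its values were seen, and read 36.2, 25.9 and 32.4 RPKM against 63.0, 2.98 and 21.1 RPKM. NF_Sugar replicate 2, the library with little Gata4 and lactase, was thus the lowest for Fgf15 and for Slc51b, and its mean over the whole list was 4.19 on the log2 scale against 4.81 to 5.12 in the other 5 libraries.

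Digestive genes of the brush border and drug-metabolizing enzymes were mostly lower with sugar. Of 15 brush-border peptidases and phosphatases, 2 were higher and 13 lower (86.7%, median -0.14, -0.36 without the 4 libraries apart and 0.03 without NF_Sugar replicate 2). Amino acid and peptide transporters were divided, 10 of 19 higher (median 0.03), with the peptide transporter Slc15a1 at 38.7, 32.8 and 44.7 RPKM with sugar and 60.1, 43.9 and 65.2 RPKM with water.

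Conjugating enzymes and xenobiotic receptors, which couple foreign and bile compounds to glutathione, sulfate or glucuronate, were the most lopsided of the lists toward lower values. Of 35 tested, 33 were lower (94.3%, against 52.3% of all genes), and the median was -0.23 (-0.39 without the 4 libraries apart). In 5 of the 35 all sugar libraries lay below all water libraries, as they did in 3.22% of all genes. With 1 library left out the median ran from -0.29 to -0.08, nearest to 0 without NF_Sugar replicate 2. The sulfotransferase Sult1d1 read 27.7, 22.5 and 34.0 RPKM in NF and 21.2, 13.7 and 16.8 RPKM in NF_Sugar, with groups apart. Sult1a1 read 3.22, 2.70 and 8.76 RPKM against 1.51, 1.64 and 3.00 RPKM, and the glutathione transferase Gsta2 1.77, 1.30 and 2.82 RPKM against 1, 0.505 and 1.39 RPKM, both apart only after scaling. The differences of these 3 genes were -0.69 ± 0.23, -0.85 ± 0.29 and -0.59 ± 0.19, with unadjusted p from 0.0108 to 0.0158 and an adjusted p of 1.0 each (limma). Averaged over the list, the libraries read 3.53, 3.32 and 3.49 in NF and 3.35, 2.92 and 3.16 in NF_Sugar on the log2 scale. NF_Sugar replicate 1 lay just above the lowest NF library.

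Cytochrome P450 genes of families 1 to 4 were lower in 18 of 25 cases (72%, median -0.22, and -0.42 without the 4 libraries apart). With 1 library left out their median ran from -0.34 to -0.03, the latter without NF_Sugar replicate 2. Cyp2c55 read 11.8, 1.73 and 30.7 RPKM in NF and 6.26, 0.128 and 0.919 RPKM in NF_Sugar, a difference of -2.04 ± 0.83 with overlapping groups. Cyp2b10, a target of the xenobiotic receptor CAR, read 1.99, 2.01 and 1.80 RPKM against 0.995, 0.0469 and 0.310 RPKM, and its groups were apart (4.30-fold lower mean, difference -1.08 ± 0.49). It varied more on the high-fat diet, at 0.307 to 5.98 RPKM with water. Carboxylesterases were lower in 9 of 10 cases (median -0.26, -0.53 without the 4 libraries apart and -0.12 without NF_Sugar replicate 2), with Ces1g at 4, 0.807 and 3.21 RPKM against 1.11, 0.228 and 0.741 RPKM.

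Smaller metabolic lists had medians of -0.12 to 0.09. Vitamin A genes were higher in 8 of 19 cases (median -0.02), with the retinol dehydrogenase Rdh7 at 13.5 to 29.0 RPKM in NF and 4.13 to 16.3 RPKM in NF_Sugar. Iron and heme genes were higher in 11 of 16 (median 0.09, and 0.01 without NF_Sugar replicate 1), and the iron exporter Slc40a1 was higher in each sugar library, at 4.52, 4.57 and 5.23 RPKM against 2.94, 4.10 and 2.79 RPKM. NRF2 antioxidant genes were lower in 12 of 16 (median -0.12, and -0.01 without NF_Sugar replicate 1). The mTOR pathway split 11 to 12 (median 0.00), and Mtor differed by 0.07 ± 0.09.

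**Figure D3:**
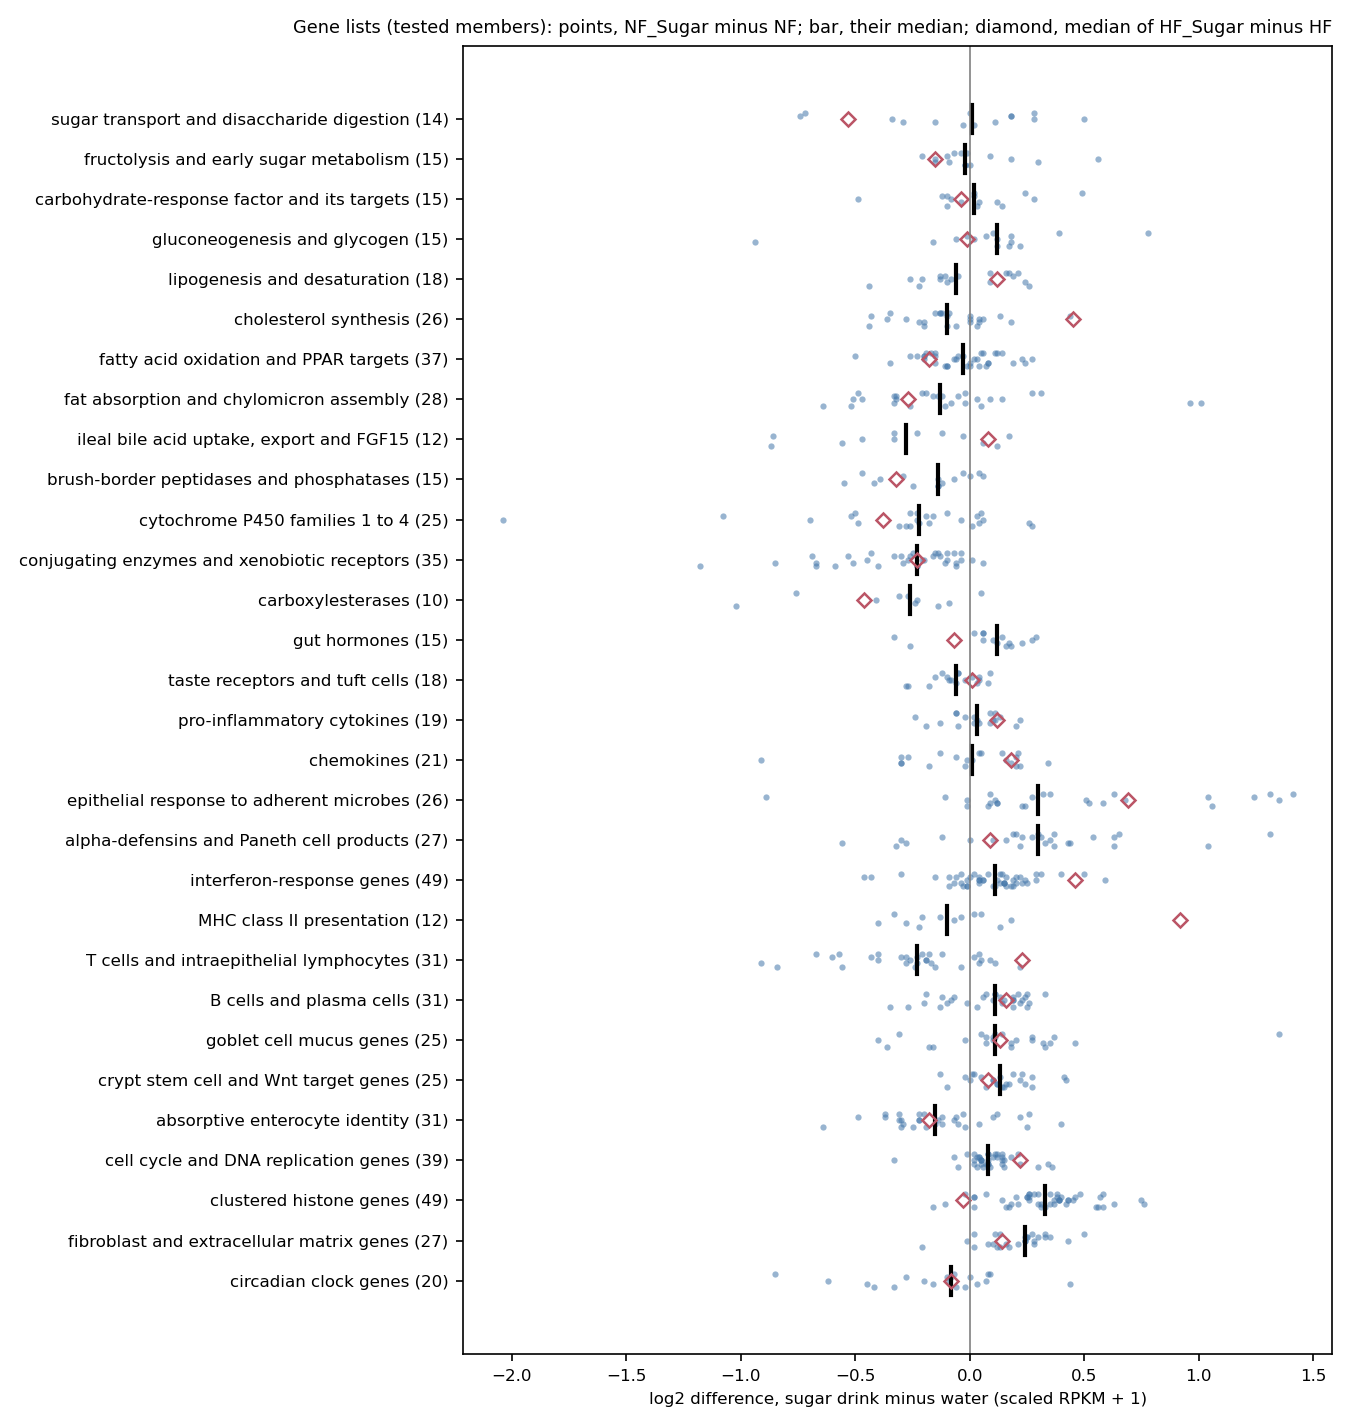
The log2 difference of NF_Sugar minus NF (horizontal axis) is plotted for each tested member of 30 gene lists (rows, with the number of tested members), with a bar at the list's median and a diamond at the median of HF_Sugar minus HF. Conjugating enzymes, P450 genes and carboxylesterases lie mostly below 0, and histone, matrix, stem cell and microbe-response genes mostly above 0 with all 6 libraries in, while no member of any list passed the adjusted threshold.

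Hormone and taste lists had medians of -0.06 to 0.12. Gut hormones were higher in 13 of 15 cases (86.7%, median 0.12, and -0.02 without NF replicate 3). Ghrelin (Ghrl) read 1.1, 1.29 and 1.30 RPKM in NF and 1.74, 1.88 and 1.51 RPKM in NF_Sugar, with groups apart and a difference of 0.27 ± 0.13 (unadjusted p 0.0587). Proglucagon (Gcg), the precursor of GLP-1, read 12.2, 11.1 and 10.2 RPKM against 10.3, 15.2 and 10.4 RPKM. Granins and lineage factors of hormone cells were higher in 4 of 13 (median -0.04), and nutrient-sensing receptors in 6 of 9 (median 0.12, -0.06 without the 4 libraries apart and -0.01 without NF replicate 2).

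The sweet and umami taste receptor subunit Tas1r3 read 0.314, 0.279 and 0.470 RPKM in NF and 0.274, 0.282 and 0.373 RPKM in NF_Sugar. The difference was -0.05 ± 0.09, with a 95% interval of -0.25 to 0.16 log2 units of RPKM plus 1, a scale that understates differences at so low a level. Its partner Tas1r2 was at 0.0690 RPKM or less in each of the 6 libraries and Tas1r1 at 0.0358 RPKM or less. Both were below the level needed for testing, as was gustducin (Gnat3), at 0.264, 0.267 and 0.304 RPKM with water and 0.154, 0.0728 and 0.0963 RPKM with sugar. The taste channel Trpm5 differed by 0.01 ± 0.13, and Plcb2 by 0.04 ± 0.11. Of 18 taste and tuft cell genes tested, 6 were higher and 12 lower (median -0.06).

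The inflammatory lists had medians of 0.01 to 0.18 on the normal-fat diet. Pro-inflammatory cytokines were higher in 12 of 19 cases (median 0.03), chemokines in 11 of 21 (median 0.01, and 0.14 without the 4 libraries apart) and chemokine receptors in 7 of 9 (median 0.18, and 0.07 without NF_Sugar replicate 1). Interleukin-1β (Il1b) read 0.484, 0.724 and 0.695 RPKM in NF and 0.353, 0.623 and 0.790 RPKM in NF_Sugar, and Tnf 0.704, 0.510 and 0.531 RPKM against 0.385, 0.544 and 0.440 RPKM. The 95% intervals were -0.37 to 0.25 and -0.51 to 0.25 log2 units of RPKM plus 1, which understates differences at such low levels. The monocyte chemokine Ccl2 was at 0 to 0.403 RPKM throughout, and Ccl5, made by cytotoxic T cells, read 5.45, 29.2 and 34.2 RPKM against 5.08, 10.2 and 14.6 RPKM.

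The epithelial response to adherent microbes was higher in 22 of 26 cases (84.6%, median 0.30). The groups were apart in 0 of them. Over all genes the sugar libraries lay above all water libraries in 3.04% and below them in 3.22%, so a list of this size can hold none. Reg3g, a secreted lectin that kills Gram-positive bacteria, read 1610, 2130 and 1100 RPKM in NF and 1930, 7340 and 4180 RPKM in NF_Sugar, and its neighbor Reg3b 2420, 2790 and 2320 RPKM against 2230, 9910 and 6620 RPKM. The means were 2.78-fold and 2.49-fold higher with sugar, with differences of 1.31 ± 0.66 and 1.06 ± 0.63. NF_Sugar replicate 2 was the highest library for both, and NF_Sugar replicate 1 lay within or below the NF range.

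Averaged over the list, NF_Sugar replicate 2 stood at 5.80 on the log2 scale, and the other 5 libraries at 4.43 to 5.06. Without the 4 libraries apart, NF_Sugar replicate 1 among them, the list's median was 0.65, and without NF_Sugar replicate 2 it was 0.03. Sprr1a, a cornified envelope protein, went the other way at 3.86, 1.72 and 7.88 RPKM with sugar against 8.79, 8.66 and 6.58 RPKM with water. Interferon-response genes were higher in 34 of 49 cases (69.4%, median 0.11, 0.29 without the 4 libraries apart, -0.07 without NF replicate 1 and -0.10 without NF_Sugar replicate 3), with Mx1 higher in each sugar library (0.542, 0.611 and 0.934 against 0.429, 0.518 and 0.443 RPKM).

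Genes of lymphocytes split by cell type. In bulk tissue, fewer cells of a type and less RNA per cell cannot be told apart. T cell and intraepithelial lymphocyte genes were lower in 24 of 31 cases (77.4%, median -0.23), and their summed level was 50.6 to 157 RPKM in NF and 61.7 to 90.8 RPKM in NF_Sugar. The natural killer receptor subunit Klrd1 (CD94) read 0.641, 1.59 and 1.52 RPKM against 0.525, 0.309 and 0.563 RPKM, and the T cell receptor constant region Trbc1 3.15, 5.10 and 6.80 RPKM against 2.25, 2.71 and 3.15 RPKM. The groups of both were apart after scaling, with differences of -0.60 ± 0.18 and -0.67 ± 0.24 and an adjusted p of 1.0 (limma).

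NF replicate 1 set the spread of this list, as it read 1.18 on the mean log2 scale while NF replicates 2 and 3 read 1.83 and 1.77 and the sugar libraries 1.26, 1.28 and 1.48. Without the 4 libraries apart, which removes NF replicate 2, the median was -0.09, and it was -0.10 without NF replicate 2 alone and -0.39 without NF replicate 1. B cell and plasma cell genes were higher in 21 of 31 cases (67.7%, median 0.11, and 0.00 without NF_Sugar replicate 1), macrophage and dendritic cell genes in 13 of 21 (median 0.02, and 0.19 without the 4 libraries apart), and genes of neutrophils, mast cells and eosinophils in 5 of 7 (median 0.22, and -0.03 without NF_Sugar replicate 2). MHC class II genes were lower in 8 of 12 cases (median -0.10), but the median was 0.49 without the 4 libraries apart, 0.22 without NF replicate 2 and -0.55 without NF replicate 1. In that list NF replicate 1 again read lowest, at 4.55 on the mean log2 scale, against 5.74 and 6.03 in the other NF libraries and 4.85 to 5.83 in NF_Sugar. MHC class I genes were lower in 19 of 27 (median -0.10, 0.10 without the 4 libraries apart, and -0.27 to 0.07 with 1 library left out), and butyrophilin-like genes were higher in 4 of 6 (median 0.04, and -0.15 without them).

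**Figure D4:**
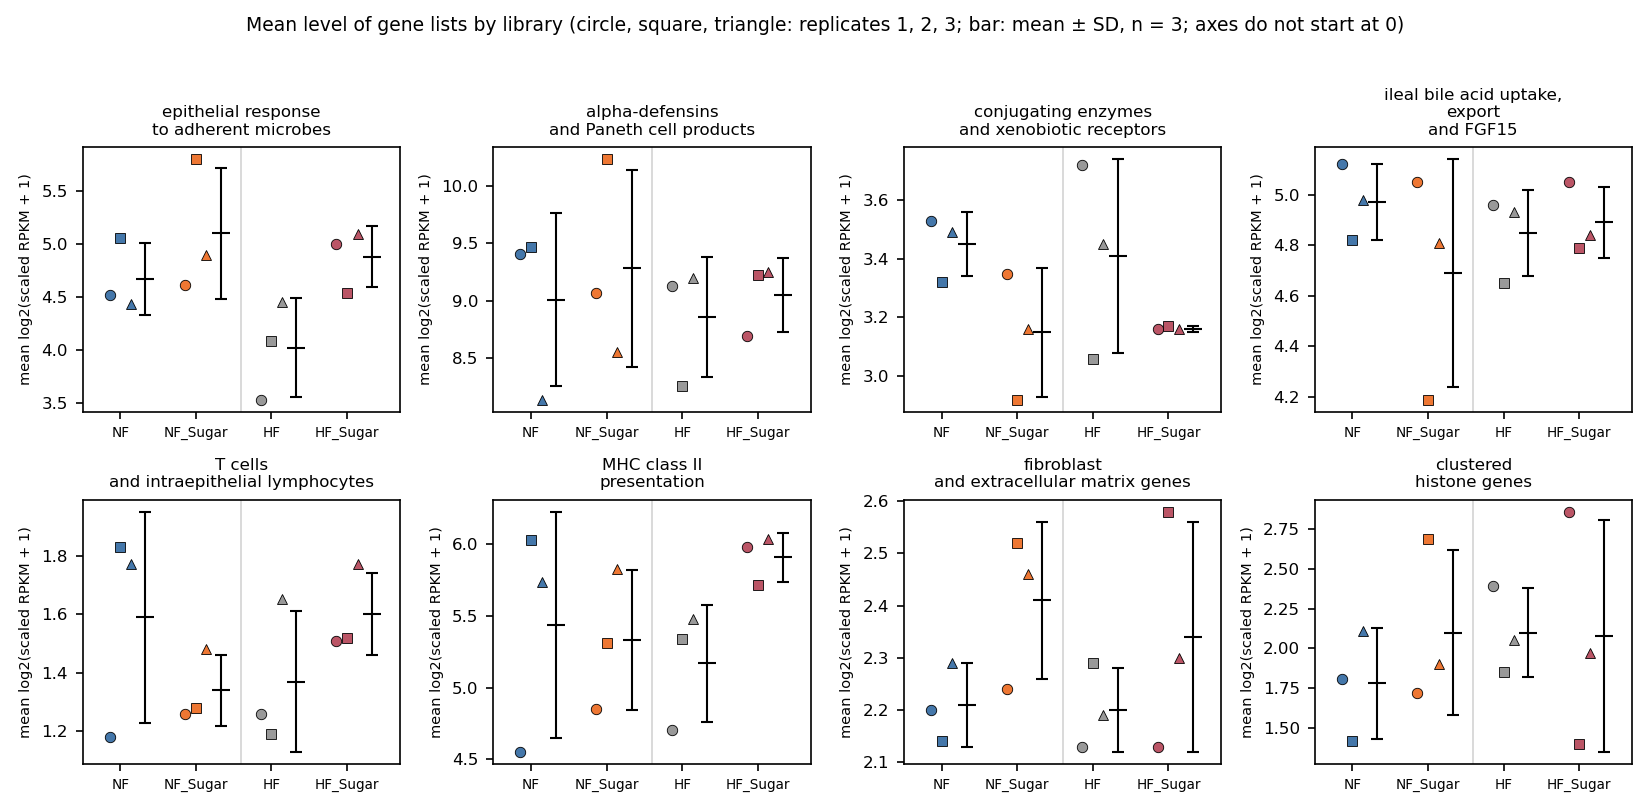
The mean log2 of scaled RPKM plus 1 over the tested members (vertical axes, which do not start at 0) is plotted by library for 8 gene lists and the 4 groups, with circles, squares and triangles for replicates 1, 2 and 3 and bars for the mean ± SD (n = 3). NF_Sugar replicate 2 is the highest of the normal-fat libraries for microbe-response, Paneth, matrix and histone genes and the lowest for conjugating enzymes and bile acid genes, and NF replicate 1 is the lowest for T cell and MHC class II genes.

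Most secretory and crypt genes were higher with sugar when all 6 libraries were used. Paneth cell products were higher in 21 of 27 cases (77.8%, median 0.30, and 0.68 without the 4 libraries apart), but the median was -0.22 without NF_Sugar replicate 2 and -0.25 without NF replicate 3. Their summed levels were 40200 to 81900 RPKM in NF and 45800 to 148000 RPKM in NF_Sugar. The near-identical copies of the α-defensin genes share reads, so single members are uncertain. The Paneth protease Mmp7 read 77.1, 104 and 37.7 RPKM against 68.0, 235 and 73.8 RPKM, and NF_Sugar replicate 2 was again the highest.

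Goblet cell genes were higher in 19 of 25 cases (76%, median 0.11, and 0.04 without NF_Sugar replicate 1). The membrane mucin Muc4 read 0.707, 1.01 and 0.944 RPKM with water and 1.23, 1.81 and 1.24 RPKM with sugar, with groups apart and a difference of 0.35 ± 0.15. The mucin glycosyltransferase B3gnt6 was lower in each sugar library, at 1.74, 1.34 and 1.27 RPKM against 2.03, 1.82 and 2.57 RPKM (difference -0.36 ± 0.16). Stem cell and Wnt target genes were higher in 21 of 25 cases (84%, median 0.13, 0.23 without the 4 libraries apart and 0.02 without NF_Sugar replicate 2). The stem cell brake Lrig1 and the BMP co-receptor Rgmb were higher in each sugar library, at 7.72 to 9.97 against 6.75 to 6.91 RPKM and 7.49 to 7.91 against 5.59 to 7.03 RPKM, and Lgr5 read 0.893, 0.979 and 0.600 RPKM against 0.520, 0.698 and 0.529 RPKM.

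Genes of dividing cells lay on the same side. Cell cycle and replication genes were higher in 35 of 39 cases (89.7%), but by a median of only 0.08 (0.24 without the 4 libraries apart and -0.03 without NF_Sugar replicate 2). The cyclin Ccne1 was an exception at 1.31, 1.41 and 0.861 RPKM with sugar against 1.47, 2.05 and 1.70 RPKM with water. Clustered histone genes were higher in 46 of 49 cases (93.9%, against 47.7% of all genes), with a median of 0.33. In 2 of them (4.08%, against 3.04% of all genes) all sugar libraries lay above all water libraries. The median was 0.01 without NF_Sugar replicate 2, 0.11 without NF replicate 2 and up to 0.50 with another library left out. The linker histone gene Hist1h1b read 0.380, 0.294 and 0.223 RPKM in NF and 0.849, 0.666 and 0.882 RPKM in NF_Sugar. Its mean was 2.67-fold higher, with a difference of 0.46 ± 0.14 and an unadjusted p of 0.00819 (limma). These values rest on few recovered reads, 11, 6 and 4 in NF and 15, 10 and 10 in NF_Sugar. Over the histone list the libraries read 1.81, 1.42 and 2.11 on the mean log2 scale with water and 1.72, 2.69 and 1.90 with sugar, so that the list means overlapped. Most histone messages lack a poly(A) tail, and the sources differ on the RNA used: the labels give total RNA as the input, and the study's methods an isolation of mRNA followed by removal of rRNA.

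Enterocyte identity genes were lower in 24 of 31 cases (77.4%, median -0.15, -0.28 without the 4 libraries apart and -0.01 without NF_Sugar replicate 2). The keratin Krt8 was lower in each sugar library, at 1720, 1620 and 1620 RPKM against 1880, 1810 and 2380 RPKM, and the anion exchanger Slc26a6 was higher in each in RPKM, at 57.3, 56.5 and 72.1 RPKM against 52.8, 40.9 and 44.7 RPKM. Guanylin and ion transport genes were lower in 20 of 26 (median -0.11, -0.22 without the 4 libraries apart and -0.04 without NF_Sugar replicate 2), tight junction genes in 10 of 18 (median -0.01) and regional identity factors in 6 of 12 (median 0.02). The tricellular junction gene Marveld2 was higher in each sugar library, at 10.9, 10.2 and 10.8 RPKM against 7.43, 8.39 and 9.14 RPKM (difference 0.31 ± 0.12, unadjusted p 0.0311, limma).

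Fibroblast and extracellular matrix genes were higher in 25 of 27 cases (92.6%, median 0.24), and in 7 of them all sugar libraries lay above all water libraries (25.9% of the list, against 3.04% of all genes). Biglycan (Bgn, chromosome X, 73483602 to 73495933), a matrix proteoglycan, read 6.23, 6.78 and 8.42 RPKM in NF and 9.11, 9.03 and 9.66 RPKM in NF_Sugar. The collagen genes Col14a1 and Col5a1 read 0.373, 0.451 and 0.738 RPKM against 1, 0.756 and 0.729 RPKM and 1.01, 0.886 and 1.35 RPKM against 1.23, 1.81 and 1.48 RPKM, apart only after scaling. The differences of the 3 genes were 0.27 to 0.33, with unadjusted p from 0.0246 to 0.0298 and an adjusted p of 1.0 each (limma).

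Averaged over the list, the libraries read 2.20, 2.14 and 2.29 with water and 2.24, 2.52 and 2.46 with sugar on the log2 scale. NF_Sugar replicate 1 lay among the NF libraries, and the list's median ran from 0.14, without NF_Sugar replicate 2, to 0.28 with 1 library left out. Other cells of the gut wall were read beside it: smooth muscle genes were higher in 13 of 21 cases (median 0.22, and -0.07 without NF_Sugar replicate 2, summed level 966 to 1470 RPKM in NF and 893 to 1950 RPKM in NF_Sugar), endothelial genes in 11 of 18 (median 0.05, 57.0 to 76.7 against 68.2 to 82.0 RPKM), and neurons and glia in 8 of 16 (median 0.00). Whether the share of gut wall in the samples had a part in these values was not tested. Red blood cell genes were higher in 3 of 4 cases (median 0.13, 0.54 without the 4 libraries apart and -0.14 without NF replicate 1, 30.5 to 83.1 against 34.5 to 92.7 RPKM summed), and pancreatic genes in 2 of 5 (2370 to 3690 against 2260 to 3080 RPKM, nearly all of it Zg16, which goblet cells also make).

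Clock genes were lower in 15 of 20 cases (75%, median -0.08, -0.32 without the 4 libraries apart and 0.01 without NF_Sugar replicate 2). The clock repressor Ciart read 0.897, 0.707 and 0.604 RPKM in NF and 0.446, 0.285 and 0.203 RPKM in NF_Sugar, with groups apart and a difference of -0.42 ± 0.15 (unadjusted p 0.0178). The nuclear receptor Nr1d1 (REV-ERBα) read 37.7, 37.3 and 25.0 RPKM against 25.3, 23.2 and 23.6 RPKM. The hour at which each mouse was sampled is not in the labels, so that a part of the sampling hour in these values was not tested.

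Stress and housekeeping lists had medians of -0.13 to 0.04. Immediate early genes were lower in 17 of 24 cases (median -0.03, and -0.18 without the 4 libraries apart), with Nr4a1 at 1.31, 2.98 and 2.75 RPKM against 4.96, 2.85 and 4.24 RPKM. Heat shock chaperones were higher in 11 of 19 (median 0.04, and 0.21 without the 4 libraries apart), with Hspa1b at 25.6 RPKM in NF_Sugar replicate 3 and 4.18 to 5.95 RPKM in the other 5. Unfolded protein response genes were higher in 19 of 32 (median 0.01) and hypoxia-inducible genes in 9 of 17 (median 0.01). Respiratory chain subunits were lower in 36 of 49 cases (median -0.10), mitochondrially encoded genes in 9 of 13 (median -0.13) and ribosomal protein genes in 40 of 54 (median -0.12, and -0.38 without NF replicate 2 but 0.12 without NF_Sugar replicate 1). The medians of the respiratory chain and mitochondrially encoded lists were -0.19 to 0.00 and -0.24 to 0.00 with 1 library left out, at 0.00 without NF_Sugar replicate 1 and without NF replicate 1 respectively. NF replicate 2 and NF_Sugar replicate 1, the libraries apart on the first component, were the lowest of the 6 for ribosomal protein genes, at 5.33 and 5.29 on the mean log2 scale against 5.73 to 6.20.

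Outside the lists, the genes with the smallest unadjusted p and separate groups were of mixed function. Among the 12 named that were higher with sugar were Kdelc1, a glycosyltransferase of the endoplasmic reticulum, at 1.24, 1.63 and 1.66 RPKM against 0.979, 0.75 and 1.1 RPKM, and Zfp335, a zinc finger regulator of transcription, at 2.64, 2.26 and 2.77 RPKM against 1.4, 1.27 and 2.12 RPKM. Ltbp4, which holds latent TGF-β in the matrix, read 6.70, 8.84 and 6.71 RPKM against 4.66, 4.58 and 5.66 RPKM, and Ldlrad4, an inhibitor of TGF-β signaling, 1.69, 2.5 and 2 RPKM against 1.29, 0.962 and 1.21 RPKM. The ion channel genes Tmem206 and Trpv2 differed by 0.38 ± 0.11 and 0.29 ± 0.09. The rest were Pklr and Fbp1 (above), Pomt1, Phf2, Kif12 and Cbfa2t3, with differences of 0.26 to 0.30 for the latter 4.

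On the lower side, next to Pparg and Klrd1, the endosomal sorting subunit Snf8 read 10.3, 11.8 and 12.5 RPKM with sugar against 15.1, 14.3 and 17.0 RPKM with water. The tRNA-modifying enzyme Yrdc read 4.50, 5.99 and 5.78 RPKM against 8.24, 6.62 and 7.99 RPKM, and the kinase Rock1, which tightens the actin cytoskeleton, 1.96, 2.08 and 2.19 RPKM against 3.07, 2.77 and 3.21 RPKM. Cytl1, a secreted cytokine-like protein, read 1.11, 0.938 and 1.43 RPKM against 2.62, 1.69 and 2.86 RPKM, the greatest difference of the 12 at -0.65 ± 0.19. The other 6 were Prr3, Epop, Hpf1 (a cofactor of PARP1), Stk32c, Gpcpd1 and Gnal (an olfactory-type G protein subunit), with differences of -0.42 to -0.30. Over the 24 genes the unadjusted p ran from 0.00191 to 0.0215, and the adjusted p was 1.0 for each in limma.

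**Figure D5:**
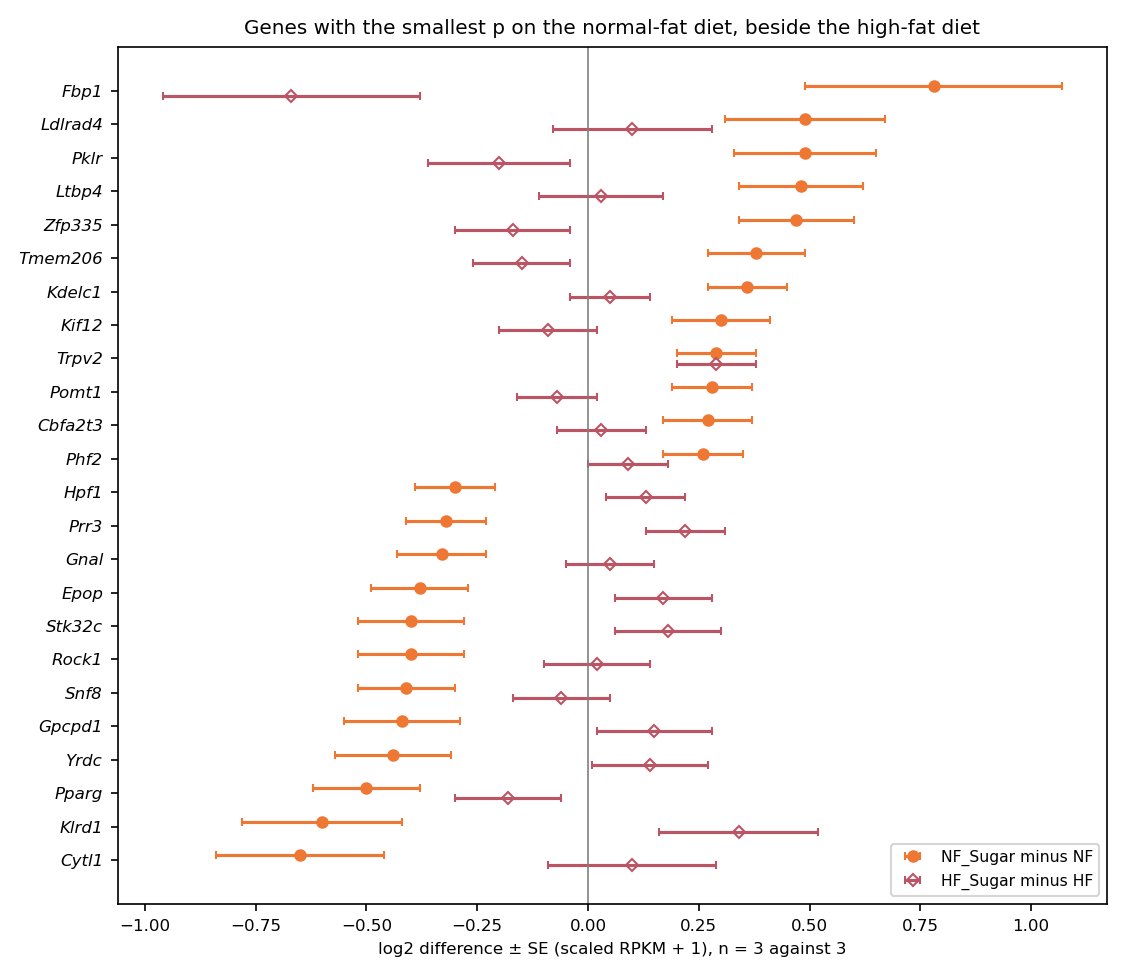
The log2 difference ± SE (horizontal axis, n = 3 against 3) is plotted for the 24 genes with the smallest unadjusted p and separate groups on the normal-fat diet (filled circles, NF_Sugar minus NF), beside the same genes on the high-fat diet (open diamonds, HF_Sugar minus HF). The genes were chosen by the filled circles, which are therefore far from 0, while the diamonds lie nearer to 0 or on the other side, as for Fbp1 at -0.67, except for Trpv2, at 0.29 on both diets.

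On the high-fat diet, the sugar drink was compared with water in other mice. The interaction, the difference between the effects of sugar on both diets, passed for 0 of 17662 genes (0.0%), with 443 at an unadjusted p under 0.05 and a smallest adjusted p of 0.50 (Il1b, limma). The effect of sugar averaged over both diets passed for 0 genes (0.0%), with 637 at an unadjusted p under 0.05. Chance alone would give 883 genes at that unadjusted p in either test. Hence no gene was shown to respond to sugar differently on normal and on high fat.

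Several of the sugar-handling genes that were higher with sugar on normal fat were lower with it on high fat. Fbp1 read 36.4, 24.8 and 19.9 RPKM in HF and 15.8, 20.4 and 12.3 RPKM in HF_Sugar, a difference of -0.67 ± 0.29 against 0.78 ± 0.29 on normal fat (interaction -1.45 ± 0.41, unadjusted p 0.00485, adjusted p 1.0, limma). Slc2a5 differed by -0.69 ± 0.27 on high fat (interaction -1.19 ± 0.39), Tkfc by -0.39 ± 0.24 (-0.96 ± 0.35) and Pklr by -0.20 ± 0.16 (-0.69 ± 0.23). These genes were taken for being higher with sugar on normal fat, and the interaction subtracts that same difference. Their interaction values are thus drawn below 0 by the choice and are no separate evidence. The sugar transport list as a whole was lower in 13 of 14 cases on high fat, with a median of -0.53.

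Pck1 and the drug-metabolizing lists lay on the lower side of both diets. Pck1 read 57.2, 19.0 and 14.7 RPKM in HF and 6.84, 10.9 and 10.1 RPKM in HF_Sugar. Conjugating enzymes had a median of -0.23 on each diet, with 29 of 35 lower on high fat, P450 genes of -0.38 on high fat and carboxylesterases of -0.46. Microbe-response genes were higher on both (median 0.69 on high fat, 24 of 26 higher), and Reg3g read 264, 803 and 922 RPKM in HF against 4150, 1660 and 1110 RPKM in HF_Sugar.

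Other lists had medians of opposite sign on the diets with all libraries in. T cell genes had a median of 0.23 on high fat against -0.23 on normal fat, MHC class II genes 0.92 against -0.10 and cholesterol synthesis genes 0.45 against -0.10. Histone genes had -0.03 against 0.33. With 1 normal-fat library left out, the normal-fat median ran from -0.55 to 0.22 for MHC class II and from -0.17 to 0.05 for cholesterol synthesis. It ran from 0.01 to 0.50 for histone genes and from -0.39 to -0.10 for T cell genes. The high-fat medians were not refitted with a single high-fat library left out. The genes with the smallest interaction p were Il1b, Cd40, Prr3 and Ccl2 above 0 and Slc6a4, Isoc2b, Susd2 and Ppm1j below 0. Of these Il1b read 0.263 to 0.778 RPKM in HF and 2.71 to 2.96 RPKM in HF_Sugar, and the serotonin transporter Slc6a4 13.0 to 14 against 6.52 to 8.97 RPKM, while on normal fat both overlapped (Slc6a4 8.14 to 10.3 against 8.56 to 10.9 RPKM). The HF_Sugar values of Il1b, Cd40, Tnf and Tas1r3 were not whole numbers of reads, while those of the other 3 groups were. Their part in the interaction was not tested.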

How the data were processed

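RNA of the ileum of 12 mice was sequenced by the authors on the Ion Proton, from total RNA per the labels and from mRNA depleted of rRNA per the study's methods. By the study's methods reads were mapped to mm10 with STAR in Partek Flow. The deposited table and the 12 identical per-sample files hold RPKM, a unit inferred from the methods and from the values. The processing behind these values can lower reads of near-identical genes.

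From the 44231 rows, 26 with a bare number for a name (at most 0.135% of a library's RPKM) were left out. Positions were matched by symbol to GENCODE M21 (40607 genes). Low values rise in steps of 1 read, which gave the depth, and 83.3% to 85.0% of them were whole reads within 0.03. Depth limits precision to counting error at best. Values were scaled by the trimmed mean of M values (TMM), and log2(RPKM + 1) of the 12 libraries in 4 groups was fitted with limma 3.58.1 (R 4.3.3, trend on, 8 residual degrees of freedom). Genes of at least 0.5 RPKM in 3 libraries and Tas1r3 were tested (17662), and called at p under 0.05 after Benjamini-Hochberg adjustment. Each of the 3 libraries of a group is 1 mouse. The fit was tested on simulated data. Count tests were not run on RPKM. Voom on recovered reads was an alternative, beside other scalings, filters, pseudocounts and sets of libraries.

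Genes were named by rule: up to 12 each way by unadjusted p with separate groups and a mean of at least 1 RPKM, up to 3 of each of 61 lists, and fixed genes of sugar handling and of the study. Some of these genes are not reported here. The comparison, the lists and the genes were chosen with earlier results of these data known. Set tests were not run, and lists are described by counts and medians. Figures were drawn with Python 3.11.15 and matplotlib 3.10.9.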

Additional observations from a re-analysis of the deposited data

How the results depend on the processing

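Sugar against water on normal fat was refitted under 22 alternatives and had 0 genes past the threshold in all but 2 of them. Without a filter on low values 4 genes passed (1700011D18Rik, Gm12131, Gm12578 and Tcrg-V6), all listed at 0 in the NF_Sugar libraries, which are shallower, and at a mean of 0.0813 to 0.249 RPKM in NF. Leaving out each replicate in turn gave 0 to 1 genes, also for sugar averaged over both diets, and the 1 gene was Igkv12-40 without NF replicate 1 (log2 difference -2.37, adjusted p 0.0117 in limma, and 0.031 over both diets, with all 6 libraries -1.59 and adjusted p 1.0). The interaction had 0 genes in the 20 alternatives that give it. The number with an unadjusted p under 0.05 (314) was 1448 with no filter, 82 with a mean of at least 5 RPKM, 680 without the 4 libraries apart, 550 with the library cluster as a covariate (added after the data were seen) and 266 to 559 with a replicate left out, 516 without NF replicate 2 and 559 without NF_Sugar replicate 1 among them. Genes with separate groups (1105) numbered 2238 with no filter, 336 with a mean of at least 5 RPKM, 5376 without the 4 libraries apart and 2022 to 3064 with a replicate left out, where fewer libraries have to be apart.

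Deviations from the group means of same-numbered NF and NF_Sugar libraries had correlations of -0.121, -0.415 and 0.261, with no common direction. With 3 libraries a group these values cannot decide whether mice were paired by number. With a replicate block 0 genes passed and 340 had an unadjusted p under 0.05.

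Of 110 genes in the text, 24 turned sign under an alternative, with 0 past the threshold where the sign turned. Without the 4 libraries apart the log2 differences of Adipoq (0.27), Cpt1a (-0.03), Il1b (0.11), Isoc2b (-0.08), Mlxipl (-0.08), Ppm1j (-0.05), Scd1 (0.02), Slc2a2 (-0.02), Slc5a1 (-0.01), Slc6a4 (-0.04), Susd2 (-0.09) and Trpm5 (-0.14) did so. Khk came to 0.00 without scaling, 0.02 with quantile normalization and 0.00 with voom, and Ccl2 to -0.28 with voom. With a replicate left out, the differences spanned 0 in Acaca (-0.12 to 0.02), Adipoq (-0.84 to 0.83), Ccl2 (-0.05 to 0.19), Cd40 (-0.15 to 0.00), Fasn (-0.28 to 0.01), Fgf15 (-1.83 to 0.22), G6pc (-0.06 to 0.63), Gata4 (-0.64 to 0.19), Gcg (-0.10 to 0.17), Il1b (-0.14 to 0.04), Isoc2b (-0.04 to 0.07), Khk (-0.21 to 0.14), Lct (-1.19 to 0.87), Scd1 (-0.82 to 0.61), Slc10a2 (-0.32 to 0.10), Slc2a2 (-0.24 to 0.87), Slc5a1 (-0.18 to 0.19), Slc6a4 (-0.03 to 0.12), Trpm5 (-0.10 to 0.11) and Txnip (-0.02 to 0.11). The cause was not tested. Depth limits genes of low RPKM most, and every NF library was deeper than every NF_Sugar library.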
